A study of Mus musculus with 24 samples.

Results

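The LIF and Stat3 signalling genes are 8 genes, Lif, Lifr, Il6st, Jak1, Stat3, Socs3, Pim1 and Pim3, chosen by name and followed over all groups of a mouse pluripotent cell series. They are 8 of the 20660 genes that the array names and are read by 11 of its 27235 named probes, 3 for Lifr, 2 for Stat3 and 1 for each of the others. The series holds 24 Agilent arrays in 1 colour, from 12 groups with 2 arrays each. The EpiSC (epiblast stem cell) lines were 129Ba1, 129Ba2 and BNa17, which were derived with a Wnt inhibitor, and 129C1 and Wt1, which were derived by the original protocol. The line 129C1 was also treated with IWP2, a compound that blocks secretion of Wnt proteins. The mESC (mouse embryonic stem cell) lines were R1 and J1 in conventional medium, and J1 was also treated with 2i, a pair of inhibitors of the kinases MEK and GSK3. The embryonic groups were epiblast at E5.5, epiblast at E6.5 and embryonic ectoderm at E7.5, all cut by hand. Every EpiSC and mESC group had been grown on feeder cells and then taken off them before RNA extraction. Strain, passage and sex are not stated in the labels, nor is it stated whether the 2 arrays of a group come from separate cultures or dissections, so each p-value covers the spread between these arrays or lines, which may be technical.

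LIF is a cytokine of the interleukin-6 family that binds a receptor made of Lifr and Il6st (gp130). Binding activates Jak kinases, which phosphorylate Stat3, and Stat3 then enters the nucleus and switches on target genes, among them Socs3, whose protein shuts the receptor complex off again, and the Pim kinases. In mouse embryonic stem cells this pathway is known for sustaining self-renewal, while EpiSCs are known to depend on activin and FGF rather than LIF. The arrays measure transcripts and hold nothing on Stat3 phosphorylation.

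The 3 target genes among the 8, Socs3, Pim1 and Pim3, are shown first by the stretch of promoter just upstream of their start, from RefSeq on GRCm38.p6, because Stat3 binds DNA at the palindrome TTCNNNGAA. Each stretch runs 5′ to 3′ on the gene's own strand over the 200 bases before the annotated start, at chr11:117969367-117969566 on the minus strand for Socs3, at chr17:29490585-29490784 on the plus strand for Pim1 and at chr15:88861994-88862193 on the plus strand for Pim3. For Pim1 this is the first of 2 annotated starts. Capitals mark a match to the palindrome.
Socs3: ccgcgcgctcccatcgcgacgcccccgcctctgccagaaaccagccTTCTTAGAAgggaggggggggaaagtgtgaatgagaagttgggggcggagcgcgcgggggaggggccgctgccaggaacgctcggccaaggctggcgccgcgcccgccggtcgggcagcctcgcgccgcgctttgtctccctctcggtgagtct
Pim1: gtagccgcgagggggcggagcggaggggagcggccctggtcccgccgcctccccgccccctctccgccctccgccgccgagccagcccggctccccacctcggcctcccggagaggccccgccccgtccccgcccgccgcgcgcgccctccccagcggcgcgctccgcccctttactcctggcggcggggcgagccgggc
Pim3: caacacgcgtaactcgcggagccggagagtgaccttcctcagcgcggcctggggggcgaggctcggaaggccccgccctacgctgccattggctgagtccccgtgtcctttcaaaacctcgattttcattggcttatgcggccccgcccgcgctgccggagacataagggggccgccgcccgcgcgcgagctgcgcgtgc
Only Socs3 among these holds the palindrome, as TTCTTAGAA at bases -154 to -146 counted from the start. The palindrome reads the same on both strands and was searched in windows of 300 bases, 250 before and 50 after each start. All 8 genes had at least 1 window and 1 of them, Socs3, had a match, while 9.55% of the 27025 genes with a window had one. Such a match is a description of letters in a window and not a measured site.

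Levels are given as log2 of the processed signal relative to the 75th percentile of each array, which is therefore 0, and the brightness of one gene's probe is not set against another's. A probe was counted as measured on an array where the scanner software marked it well above background. By that measure 7 of the 8 genes were seen on all 24 arrays. Lif itself was well above background on 2 of 24 arrays, 1 of Wt1 and 1 of 129Ba2, and on no array of the mESC lines or embryos, so it entered no test. Its 2 arrays of 129Ba2 read -1.06 and -4.97. Lif is thus left with no usable difference, since nearly all of its readings lie in the background.

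**Figure D1:**
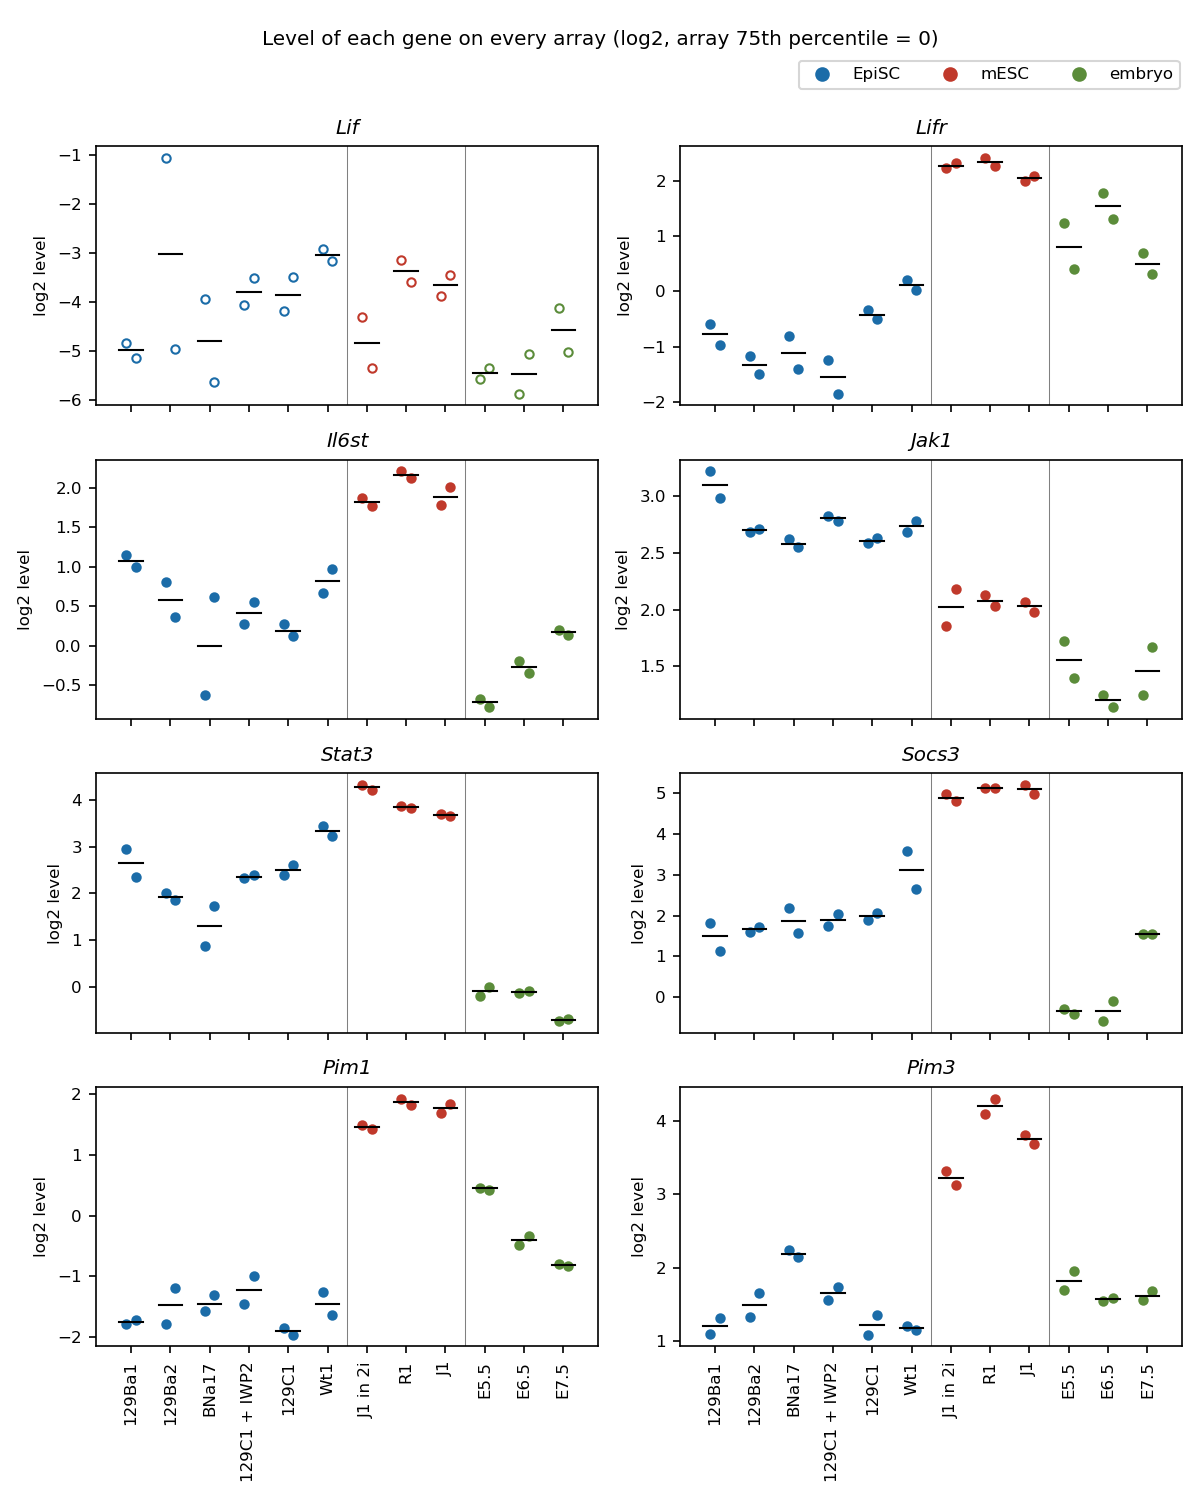
Level of each of the 8 genes on every array, as log2 relative to the array's 75th percentile (each panel has its own vertical axis). Points are arrays, open where the probe was not well above background on both arrays of the group, black bars are group means, and grey lines separate EpiSC, mESC and embryo groups. Socs3, Stat3, Pim1 and Pim3 are highest in the mESC groups, while Jak1 is highest in the EpiSC groups.

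Across the 12 group means Socs3 spanned the widest range, 5.48 log2 units or 44.6-fold, followed by Stat3 with 4.98 or 31.6-fold. Lifr spanned 3.88 log2 units, Pim1 3.79, Pim3 3.02 and Il6st 2.89, and Jak1 spanned the least with 1.90. The 3 mESC groups held the top 3 places for Lifr, Il6st, Stat3, Socs3, Pim1 and Pim3. For Stat3 they were followed by the EpiSC groups, and the embryo groups came last. For Pim1, and for Lifr by its brightest probe, it was the embryo groups that came between the mESC groups and the EpiSC groups. The other 2 Lifr probes did not give this order: they put Wt1 (-1.5 and -2.21) above E5.5 epiblast (-2.09 and -2.97).

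The difference between the 2 kinds of stem cell line was the first comparison, with the 5 untreated EpiSC lines and the 2 mESC lines in conventional medium as units. A gene was called where limma gave a Benjamini-Hochberg adjusted p, taken over all genes tested, under 0.05 and the change was at least 2-fold. Of the 7 genes tested, 5 were called lower in EpiSC lines and 0 higher, namely the receptor chains Lifr and Il6st, the inhibitor Socs3 and the kinases Pim1 and Pim3. Of all 14442 genes tested, 25.1% were called either way and 12.2% lower. The median log2 difference was -2.52 over the 7 genes and -0.01 over all genes tested.

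Lifr, the chain that binds LIF, ranged over the 10 EpiSC arrays between -1.49 and 0.20 (median -0.70), against 2.00 and 2.09 in J1 and 2.41 and 2.27 in R1. The highest EpiSC arrays were those of Wt1, and all lay below every mESC array. The log2 difference was -2.89 ± 0.38 (SE, 5 lines against 2, limma adjusted p = 0.00165). The other 2 Lifr probes differed in the same direction, by -1.55 and -2.75. Il6st, the signal-transducing chain shared by the whole cytokine family, lay between -0.63 and 1.15 on EpiSC arrays (median 0.65), against 1.78 and 2.01 in J1 and 2.21 and 2.13 in R1. Its difference was -1.50 ± 0.31 (limma adjusted p = 0.00994), and the call was lost without J1 (adjusted p = 0.0575) and without R1 (adjusted p = 0.088).

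Downstream of the receptor, Socs3 ranged between 1.14 and 3.58 on EpiSC arrays (median 1.86), against 5.20, 4.99, 5.12 and 5.14 on the mESC arrays. The 2 arrays of Wt1, at 3.58 and 2.66, were the highest among EpiSC lines, and the other EpiSC arrays lay at 2.19 or below. The log2 difference of Socs3 was -3.09 ± 0.42 (limma adjusted p = 0.00182). Pim1, a serine/threonine kinase, lay between -1.96 and -1.19 on EpiSC arrays (median -1.68), against 1.70, 1.84, 1.93 and 1.83 on the mESC arrays. Its difference of -3.43 ± 0.19 (limma adjusted p = 4.26e-05) was the largest of the 7. Pim3, a kinase of the same family, lay between 1.09 and 2.24 on EpiSC arrays (median 1.32), against 3.81, 3.68, 4.09 and 4.30 on the mESC arrays. The difference was -2.52 ± 0.32 (limma adjusted p = 0.00132), and the line BNa17 had the highest Pim3 of the EpiSC lines.

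Stat3 and Jak1 were not called. Stat3, the transcription factor itself, ranged between 0.87 and 3.45 on EpiSC arrays (median 2.38), against 3.69, 3.66, 3.88 and 3.83 on the mESC arrays. No EpiSC array reached the mESC level, yet the lines were spread widely, with means of 1.30 in BNa17 and 3.34 in Wt1. The log2 difference was -1.42 ± 0.50 (limma adjusted p = 0.0594), and the gene was called in 8 of 32 alternative settings. Without Wt1 it was -1.67 and called (adjusted p = 0.0187), and with single arrays as units, which counts the 2 arrays of each line as independent, the adjusted p was 2.66e-07 at the same difference. Jak1, the kinase bound to the receptor, went the other way: its EpiSC arrays lay between 2.55 and 3.22 (median 2.69), against 2.07, 1.98, 2.13 and 2.03 on the mESC arrays. The difference of 0.70 ± 0.19 had a limma adjusted p of 0.0272 but was under 2-fold.

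Among 48 other genes of the pathway, 46 were tested, and 1 was called higher and 15 lower in EpiSC lines, with a median log2 difference of -0.63. The lower genes included 7 of 11 tested target genes: Tfcp2l1 (-7.52 ± 0.64), Klf4 (-4.90 ± 0.52) and Klf5 (-4.33 ± 0.51), all transcription factors of naive pluripotency, Bcl3 (-4.14 ± 0.34), the AP-1 genes Fos and Junb, and Mcl1, which protects from apoptosis. The adaptor Gab1 fell by 5.06 on the log2 scale, with 8 of 10 EpiSC arrays well above background. The cytokine Il6 was called lower as well, but it was well above background on 2 of 10 EpiSC arrays and Tfcp2l1 on 5 of 10, so their EpiSC levels lie largely in the background. Stat5b was the 1 gene called higher, by 1.72 ± 0.31 (limma adjusted p = 0.00576), while its paralog Stat5a was called lower, by -1.29 ± 0.33 (limma adjusted p = 0.0209). The naive marker list, which shares Tfcp2l1 and Klf4 with these targets, was called lower for 10 of its 10 genes. Its summed level, with the 75th percentile as 1, was 1.43 to 4.93 on EpiSC arrays and 1070 to 1270 on mESC arrays. Bulk RNA cannot tell fewer cells of a type from less RNA per cell. Fibroblast markers, which feeder cells would carry, had 0 of 10 genes called between the kinds and summed to 92.6 to 452 on EpiSC arrays and 86.9 to 149 on mESC arrays. Their part in these differences was not tested. EpiSC and mESC lines also lay on different slides and were scanned on different days.

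**Figure D2:**
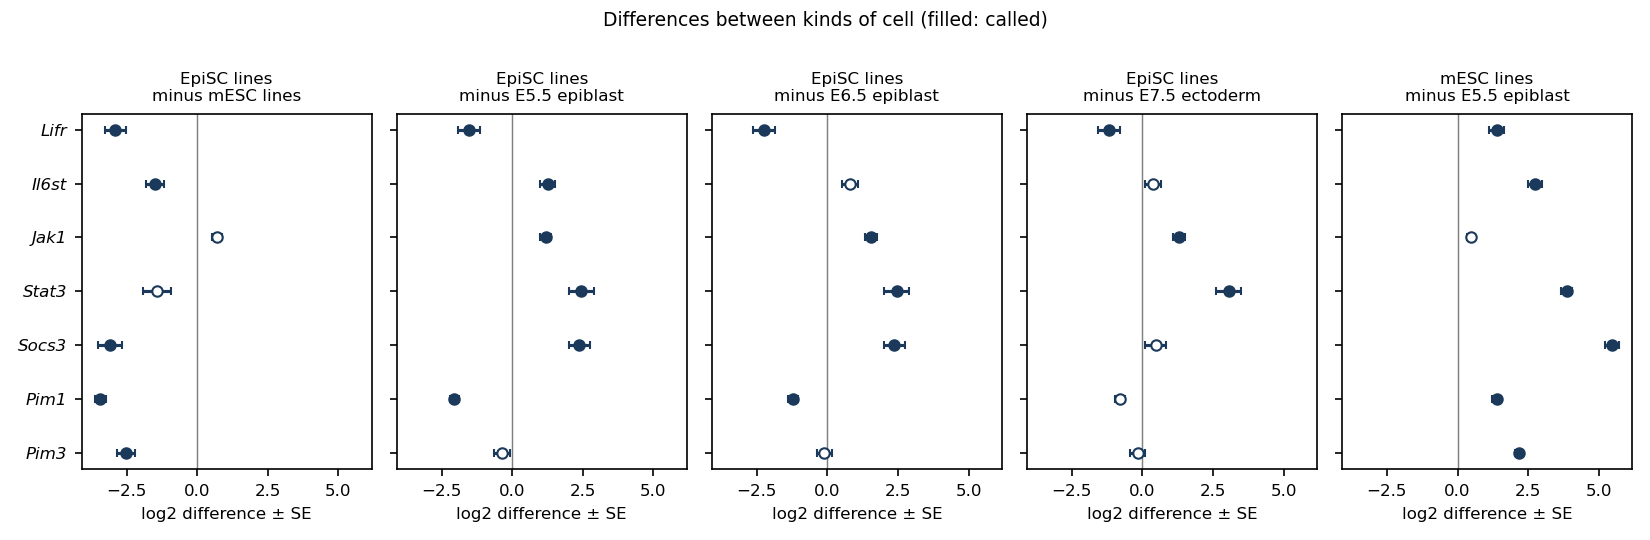
Log2 difference of 7 genes (rows) in 5 comparisons of kinds of cell (panels), with bars of 1 standard error from limma; filled points were called. Pim1, and Lifr by the probe shown, lie in EpiSC lines below mESC lines and below each embryonic stage. The other 2 Lifr probes gave 0.19 and 0.9 against E7.5 ectoderm. Stat3 in EpiSC lines lies below mESC lines and above each stage. Single arrays were the units for mESC lines minus E5.5 epiblast, and means of EpiSC lines entered the other panels.

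The embryonic tissues gave a second baseline. In mESC lines 6 of the 7 genes tested were called higher than in E5.5 epiblast and 0 lower, where 32.2% of the 15085 genes tested were called either way and 17.6% higher. The mESC values are those given above, from J1 and R1. Single arrays were the units here, so the standard errors and p-values hold no spread between J1 and R1. Socs3 read -0.29 and -0.41 in E5.5 epiblast, which placed mESC lines higher by 5.46 ± 0.25 (limma adjusted p = 3.27e-10). Stat3 read -0.19 and 0.00 in E5.5 epiblast and was higher in mESC lines by 3.86 ± 0.20. Il6st was higher by 2.75 ± 0.24, Pim3 by 2.16 ± 0.14, Lifr by 1.38 ± 0.25 and Pim1 by 1.38 ± 0.17, and without the second E5.5 array Lifr fell under 2-fold (0.96, adjusted p = 0.0128). Jak1 was higher by 0.49 ± 0.14 (limma adjusted p = 0.00769), under 2-fold. Of 46 other pathway genes tested, 22 were called higher and 4 lower in mESC lines, with a median of 0.93 against 0.06 over all genes. All 4 of the other receptor genes were among the higher. Osmr, the oncostatin M receptor, was not well above background in E5.5 epiblast and was at least 17.9-fold higher. Il6ra was in the background there too. Cntfr was uneven, at -1.25 and 1.31 in J1 and -1.89 and -2.25 in R1, against -3.11 and -2.52 in E5.5 epiblast. Target genes with the largest rises were Bcl3 (6.64 ± 0.19), Tfcp2l1 (5.79 ± 0.42), Klf4 (5.73 ± 0.43), Klf5 (5.52 ± 0.26) and Gbx2 (4.21 ± 0.36), and Il6 was at least 14-fold and Junb at least 9.47-fold higher, both in the background in E5.5 epiblast. The 4 lower genes were Pim2, Myc, Clcf1 and Socs6. These lines and E5.5 epiblast lay on different slides, so kind and slide cannot be told apart; E7.5 ectoderm and J1 shared a slide, and there E7.5 ectoderm was lower in Stat3 by -4.39 and in Socs3 by -3.54.

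In EpiSC lines, 4 genes were called higher and 2 lower than in E5.5 epiblast, where 14.7% of 14745 genes tested were called higher and 9.43% lower, 24.1% in all. Stat3 was higher by 2.44 ± 0.44 (limma adjusted p = 0.00252), Socs3 by 2.38 ± 0.38 (adjusted p = 0.00138), Il6st by 1.26 ± 0.27 (adjusted p = 0.00615) and Jak1 by 1.19 ± 0.20 (adjusted p = 0.00166). Pim1, whose E5.5 arrays read 0.46 and 0.43, was lower by -2.05 ± 0.17 (limma adjusted p = 4.06e-05). Lifr, whose E5.5 arrays read 1.23 and 0.40, was lower by -1.52 ± 0.39 (limma adjusted p = 0.0132), and without the first of these arrays the call was lost (-1.10, adjusted p = 0.139). The call for Il6st was lost without the other E5.5 array (1.20, adjusted p = 0.0529). Pim3 differed by -0.36 ± 0.27 (limma adjusted p = 0.311). The other 2 Lifr probes gave smaller differences from E5.5 epiblast, -0.39 and -0.84. With the mean of all probes Lifr was at -0.91 and not called (limma adjusted p = 0.103). By the probes that represent them, the 2 receptor chains of LIF stood on opposite sides of E5.5 epiblast in EpiSC lines.

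Against E6.5 epiblast 3 genes were called higher in EpiSC lines and 2 lower, where 12.9% of genes were called higher and 9.11% lower, 22% in all. Stat3 was higher by 2.45 ± 0.44, Socs3 by 2.37 ± 0.38 and Jak1 by 1.55 ± 0.20, while Lifr was lower by -2.24 ± 0.39 and Pim1 by -1.21 ± 0.17. Il6st was 0.80 ± 0.27 higher (limma adjusted p = 0.0438), under 2-fold. Under normexp background correction Pim1 was lower by -0.71 and no longer called. Against E7.5 ectoderm 2 genes were called higher, Stat3 by 3.06 ± 0.44 and Jak1 by 1.29 ± 0.20, and 1 lower, Lifr by -1.20 ± 0.39 (limma adjusted p = 0.0436), where 11.4% of genes were called higher and 6.23% lower, 17.6% in all. The call for Lifr was lost in 13 of 28 alternative settings. Socs3 differed by 0.47 ± 0.38 (limma adjusted p = 0.378), and Pim1 was lower by -0.80 ± 0.17 (adjusted p = 0.00813), under 2-fold. The 3 Lifr probes disagreed in these tissues. Against E7.5 ectoderm the other 2 gave 0.19 and 0.90, with the second well above background on 0 E7.5 arrays, and the mean of all probes gave -0.04 (limma adjusted p = 0.953). Against E6.5 epiblast they gave -0.09 and -1.26. The comparisons of EpiSC lines with the 3 stages share the EpiSC lines and are not independent of each other, and no slide held both EpiSC lines and embryos.

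Other receptor genes followed the same direction as Il6st against E5.5 epiblast. All 4 were called higher in EpiSC lines: Osmr by at least 16.9-fold and Il6ra by at least 4.59-fold, since neither was well above background in E5.5 epiblast, Cntfr by 3.41 ± 0.34 log2 units and Il11ra1 by 1.68 ± 0.39. In all, 13 of 44 other pathway genes tested were called higher and 2 lower, with a median of 0.11 against -0.04 over all genes. The lower genes were Myc (-2.12 ± 0.32) and Gab1 (-1.27 ± 0.24). Against E6.5 epiblast the counts were 9 higher and 4 lower, and against E7.5 ectoderm 9 and 1. Against E6.5 epiblast 7 were called in all without the first E6.5 array and 8 without the second. Osmr, Jak3, Stat2, Stat4, Stat5a, Bcl3 and Junb were called higher against each of the 3 stages. Some of these had embryo levels in the background. Osmr was well above background on 0 arrays at each stage, Jak3 and Junb on 0 at E5.5 and E7.5, and Stat5a on 0 at E7.5. Junb was so on 1 array at E6.5.

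**Figure D3:**
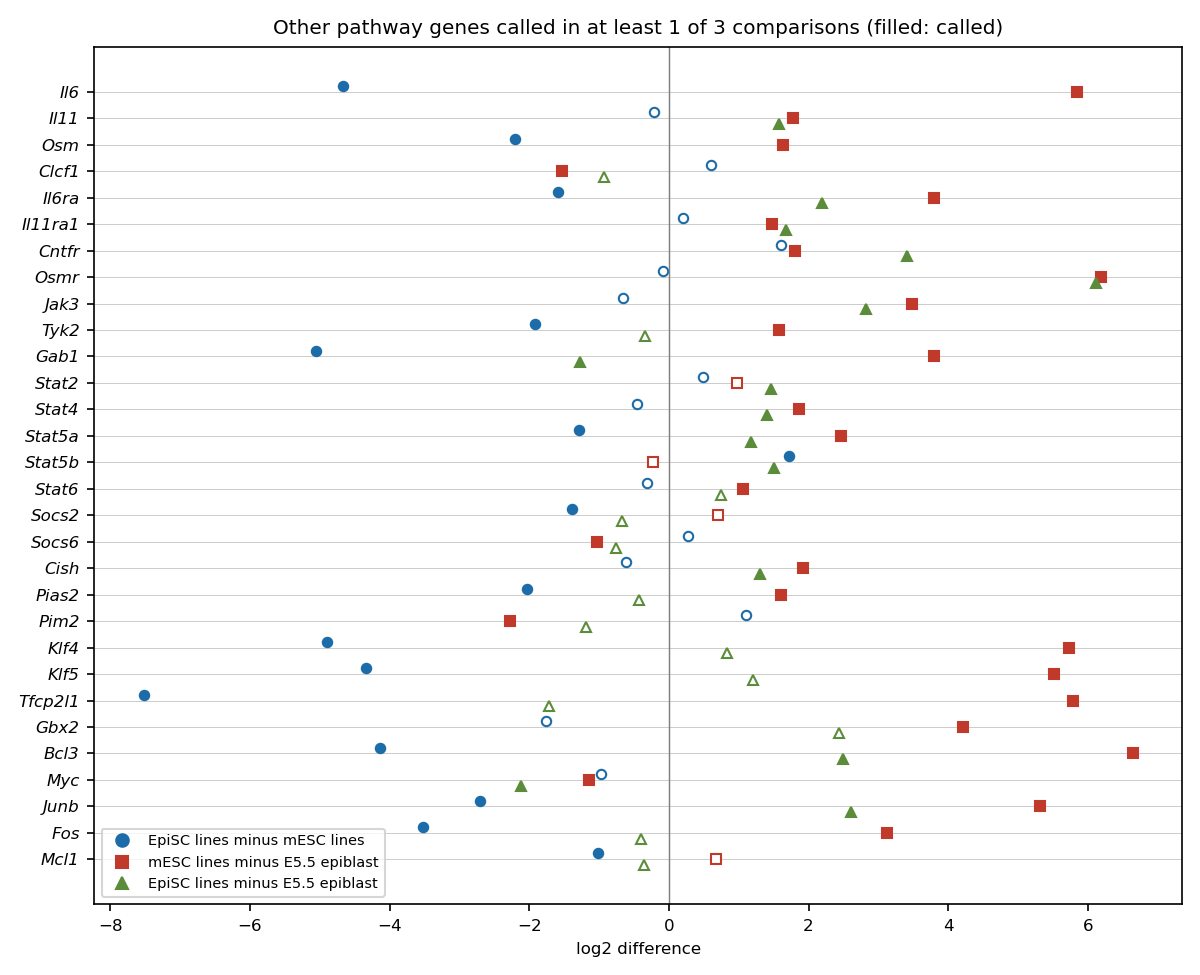
Log2 difference of the other pathway genes called in at least 1 of 3 comparisons, filled where called, with circles for EpiSC minus mESC lines, squares for mESC lines minus E5.5 epiblast and triangles for EpiSC lines minus E5.5 epiblast. Tfcp2l1, Gab1, Klf4, Klf5 and Bcl3 are far lower in EpiSC than in mESC lines, while Osmr is higher in both kinds of line than in E5.5 epiblast (for genes in the background on one side the point is the fitted value, not a bound).

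Fibroblast markers moved with every comparison of lines and embryos. All 10 markers were well above background on both arrays in each EpiSC and mESC group, and 5 or 6 of 10 in each embryo group. Their summed level was 92.6 to 452 on the EpiSC arrays and 86.9 to 149 on the mESC arrays, against 7.0 to 7.3 at E5.5, 6.41 to 6.48 at E6.5 and 14.7 to 15.2 at E7.5. Against E5.5 epiblast all 10 were called higher in EpiSC lines and in mESC lines alike. Markers that were in the background on both E5.5 arrays were Lum, Postn, Pdgfrb, Fbn1 and S100a4. The part of fibroblast RNA in the higher Stat3, Jak1, Il6st and Osmr of cultured lines was not tested. Among the EpiSC groups, 129Ba1 had the highest fibroblast sum (372 to 452) and the highest Osmr (2.34 and 1.79), Jak1 (3.22 and 2.99) and Il6st (1.15 and 1). Stat3 was highest among them in Wt1 (mean 3.34, against 2.66 in 129Ba1), as was Socs3 (3.12, against 1.49). Visceral endoderm markers also differed: they summed to 1.48 to 14.3 on the EpiSC arrays, against 8.7 and 90.4 on the 2 E5.5 arrays, 18.8 to 28.6 at E6.5 and 1.59 to 2.37 at E7.5.

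**Figure D4:**
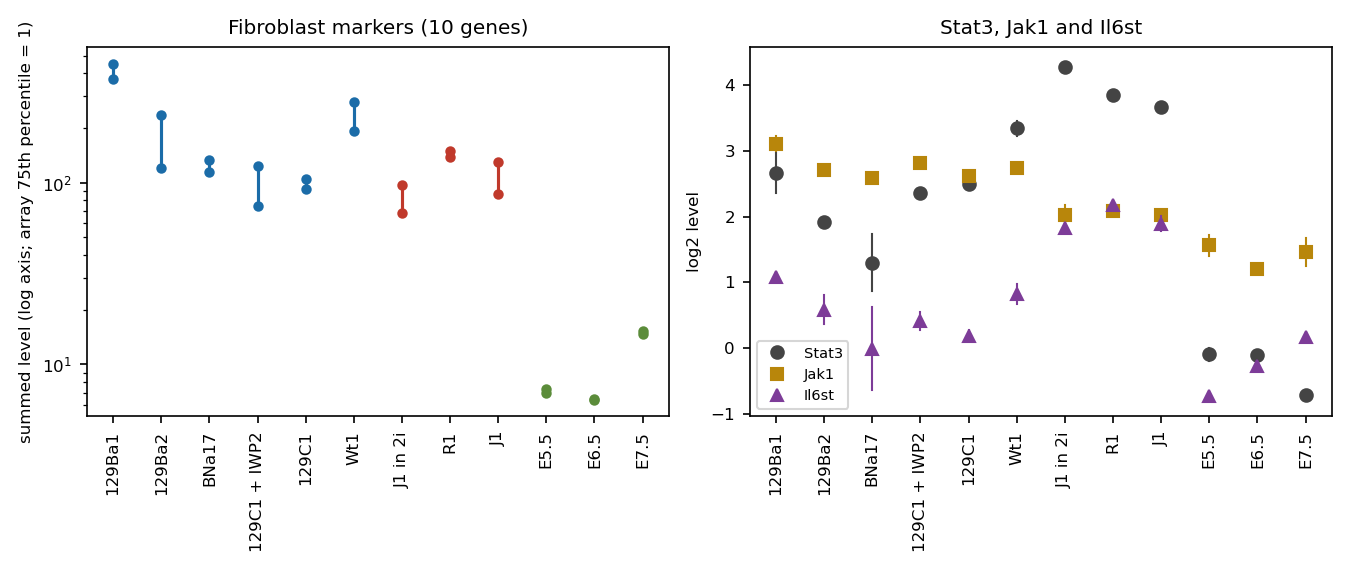
Left, summed level of 10 fibroblast markers in each group (log axis, array 75th percentile = 1), with the 2 arrays as joined points. Right, group mean log2 level of Stat3, Jak1 and Il6st, with a line between the 2 arrays. The fibroblast sum is lowest in the embryo groups, at 6.41 to 15.2, and highest in 129Ba1.

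Between embryonic stages, E6.5 epiblast differed from E5.5 epiblast, scanned on the same slide, in 0 of the 7 genes by limma, where 2.71% of genes were called higher and 2.19% lower, 4.91% in all, and 3 of the 7 had an unadjusted p under 0.05. Pim1 read -0.48 and -0.33 at E6.5, against 0.46 and 0.43 at E5.5. The groups did not overlap for Pim1, nor for Lifr, Il6st, Jak1 and Pim3. The Pim1 difference was -0.85 ± 0.20 (limma adjusted p = 0.014), under 2-fold. None of 46 other pathway genes was called by limma, and 8 had an unadjusted p under 0.05, though 2 were called without the second E5.5 array and 1 without either E6.5 array. E7.5 ectoderm differed from E6.5 epiblast in 2 genes, where 6.33% of genes were called higher and 8.53% lower, 14.9% in all. Socs3 read 1.55 and 1.56 at E7.5, against -0.58 and -0.10 at E6.5, a rise of 1.89 ± 0.29 (limma adjusted p = 0.000307). Lifr read 0.69 and 0.31 at E7.5, against 1.78 and 1.30 at E6.5, a difference of -1.04 ± 0.29 (limma adjusted p = 0.015), and the call was lost without the first E6.5 array (adjusted p = 0.135) or the second E7.5 array (adjusted p = 0.106). The other 2 Lifr probes gave -0.28 and -2.16, with the second well above background on 0 E7.5 arrays. Stat3 was -0.73 and -0.70 at E7.5, against -0.13 and -0.09 at E6.5 (limma adjusted p = 0.0658). The second Stat3 probe, well above background on 0 arrays of either tissue, gave 1.98 in the other direction, and the mean of both probes gave 0.69 (limma adjusted p = 0.128), so the direction for Stat3 depends on the probe. Other pathway genes changed both ways, among them the following: Gbx2 rose by 6.74 ± 0.42, Cntfr by 3.55 ± 0.60 and Klf5 by 1.60 ± 0.30, while Myc fell by 2.81, Socs2 by 1.46 and Il6ra, measured on 1 of 2 E7.5 arrays, by 1.11 on the log2 scale. Il6 was called as well but was in the background in both tissues. E7.5 and E6.5 tissue lay on different slides, so stage and slide cannot be told apart, and marker lists moved with stage. All 9 visceral endoderm and all 5 definitive endoderm markers were called lower at E7.5, as were 3 of 5 primitive streak and mesoderm markers, while 7 of 10 fibroblast markers were called higher and 1 lower. The definitive endoderm sum was 2.04 to 2.99 at E7.5, against 19.4 to 24.4 at E6.5, and the primitive streak and mesoderm sum was 7.78 to 38.1 at E7.5, against 36.9 to 42.1 at E6.5. The part of these tissues in the Socs3 and Lifr differences was not tested.

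In 2i, J1 cells differed from J1 cells in conventional medium in 0 of the 7 genes by limma, where 6.05% of genes were called higher and 7.03% lower, 13.1% in all, and 2 had an unadjusted p under 0.05. Stat3 read 4.32 and 4.22 in 2i, against 3.69 and 3.66 in conventional medium. These arrays did not overlap, nor did those of Lifr, Socs3, Pim1 and Pim3. The Stat3 difference was 0.59 ± 0.23 (limma adjusted p = 0.0708). Pim3 read 3.31 and 3.13 in 2i, against 3.81 and 3.68 in conventional medium, a difference of -0.53 ± 0.16 (limma adjusted p = 0.0223), under 2-fold. Socs3 read 4.97 and 4.80 in 2i, against 5.20 and 4.99 in conventional medium, a difference of -0.21 ± 0.29 (limma adjusted p = 0.625). Pim1 differed by -0.30 ± 0.20 (limma adjusted p = 0.273). The third kinase of the Pim family, Pim2, read -1.51 and -1.55 in 2i, against 2.10 and 2.35 in conventional medium, a difference of -3.75 ± 0.37 (limma adjusted p = 1.38e-05). In all, 3 of 46 other pathway genes rose, Il6ra (1.35 ± 0.35), Stat5b (1.34 ± 0.23) and Jak3 (1.07 ± 0.26), and 6 fell, among them Junb (-1.61 ± 0.41), Il11 (-1.54 ± 0.40), Myc (-1.30 ± 0.33) and Ccnd1 (-1.02 ± 0.25) besides Pim2. The last of the 6, Socs5, was in the background in both media. The number called, 9 in all, was 4 without the second array in conventional medium and 5 without the first in 2i. J1 in 2i was scanned on a slide and day of its own, so treatment and slide cannot be told apart. Some markers of differentiating cells moved with the medium. Called lower in 2i were 4 of 5 definitive endoderm markers (Cer1, Foxa2, Sox17 and Gata6). So were the streak markers T and Lhx1, 2 of 5, and 4 of 8 primed epiblast markers, among them Fgf5 (-4.62) and Pou3f1 (-3.32). Of the visceral endoderm markers 0 of 9 were called, and of the trophoblast and extraembryonic ectoderm markers 0 of 6 tested. The sum of the latter was 15.2 to 19 in 2i and 8.15 to 9.7 in conventional medium. The definitive endoderm sum was 1.31 to 1.54 in 2i and 6.21 to 7.54 in conventional medium, with Sox17, Cer1 and Gata6 in the background in 2i. The primitive streak and mesoderm sum was 0.351 to 0.420 in 2i and 3.55 to 3.98 in conventional medium, and the primed epiblast sum was 113 to 119 in 2i and 289 on both arrays in conventional medium. The fibroblast sum was 68.4 to 97.3 in 2i and 86.9 to 130 in conventional medium, with 1 of 10 markers called lower. The part of such cells in these differences was not tested.

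In 129C1 cells 1 of the 7 genes was called lower with IWP2, where 1.4% of genes were called higher and 2.49% lower, 3.88% in all. Lifr read -1.24 and -1.84 with IWP2, against -0.34 and -0.50 without, a difference of -1.12 ± 0.29 (limma adjusted p = 0.0313). The other 2 Lifr probes gave -0.69 and -0.34, the second well above background on 0 arrays of either group. With the mean of all probes Lifr was at -0.72 and not called (limma adjusted p = 0.0618). In all, 7 of 14 alternative settings lost the call. The call was lost without either untreated array (adjusted p = 0.196 and 0.109) and without 1 of the treated arrays (-0.82, adjusted p = 0.301). Pim1 read -1.45 and -1.0 with IWP2, against -1.86 and -1.96 without, a difference of 0.69 ± 0.20 (limma adjusted p = 0.0576). Stat3 and Socs3 differed by -0.14 ± 0.23 and -0.10 ± 0.29. Treated and untreated 129C1 lay on different slides and cannot be told apart from them. Of 46 other pathway genes, Cish fell by 1.04 on the log2 scale and Gbx2 was at least 7.27-fold higher, being in the background in untreated 129C1. The count was 5 without the first treated array and 1 without the first untreated array. Definitive endoderm markers moved with the treatment, all 5 being called lower: they summed to 0.181 to 0.249 with IWP2, against 83.5 to 99.4 without, and Sox17, Foxa2, Cer1 and Gata6 were in the background with IWP2. The streak markers T and Lhx1, 2 of 5 in their list, were called lower too. The primitive streak and mesoderm sum was 0.559 to 0.975 with IWP2, against 4.16 to 5.12 without. The visceral endoderm sum was 1.99 to 2.25 with IWP2, against 9.41 to 14.3 without, but only 1 of 9 markers, Rbp4, was called lower. The part of such cells in the lower Lifr was not tested.

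The 3 lines derived with a Wnt inhibitor differed from the 2 lines of the original protocol in 0 of the 7 genes by limma, where 0.491% of genes were called higher and 0.969% lower, 1.46% in all, and 1 had an unadjusted p under 0.05. Lifr ranged between -1.49 and -0.58 in the Wnt inhibitor lines, against 0.20 and 0.02 in Wt1 and -0.34 and -0.50 in 129C1. Its arrays did not overlap, and the difference was -0.91 ± 0.27 (limma adjusted p = 0.194). Stat3 differed by -0.96 ± 0.47 (adjusted p = 0.359) and Socs3 by -0.88 ± 0.37 (adjusted p = 0.311), both with overlapping arrays. Within 1 slide, against 129C1 alone, the differences were -0.65, -0.54 and -0.31 for Lifr, Stat3 and Socs3. Tfcp2l1 (-1.81 ± 0.25, limma adjusted p = 0.0394) and Ptpn6, the phosphatase SHP-1 (-1.54 ± 0.23, limma adjusted p = 0.0495), were the 2 of 44 other pathway genes called. Tfcp2l1 was well above background on 1 of 6 Wnt inhibitor arrays. The count was 0 without either array of 129Ba1, the first of 129Ba2 or the second of BNa17, and 0 without any 1 of these lines. It was 1 without either Wt1 array or the whole line, without the first array of 129C1, the second of 129Ba2 or the first of BNa17. Definitive endoderm markers moved with the same groups: they summed to 0.17 to 0.341 in the Wnt inhibitor lines, against 38.1 to 99.4 in the original lines, and their part in these differences was not tested.

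R1 differed from J1 in 0 of the 7 genes by limma, where 0.252% of genes were called higher and 0.252% lower, 0.504% in all, and 1 had an unadjusted p under 0.05. That gene was Pim3, at 4.09 and 4.30 in R1, against 3.81 and 3.68 in J1 (0.45 ± 0.16, limma adjusted p = 0.299). R1 and J1 lay on different slides, so line and slide cannot be told apart. For the other pathway genes the count was likewise 0 of 46 by limma, with 4 at an unadjusted p under 0.05, and 1 was called without the first J1 array.

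The genes whose profile over the 12 groups was most like each gene were ranked by the root mean square difference of their centred group means, among 12747 genes measured in at least 6 groups. Stat3 was most like Hebp1 (0.45) and Stat5a (0.48), where the profile of Stat3 itself had a root mean square of 1.60. Socs3 was most like Vegfc (0.55), Lifr like Zmynd8 (0.35), Il6st like Arhgap23 (0.23), Pim1 like Pnldc1 (0.34) and Pim3 like Mif4gd (0.23). All of these values come from the same 24 arrays and share their scaling.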

How the data were processed

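RNA from 24 samples was hybridised to single-colour Agilent arrays. Per the file headers, the authors deposited processed signal intensity with flags for well above background, read with Agilent Feature Extraction 10.5.1.1 according to the submitters' processing notes, and a table of log2 values, which a comparison with the raw files showed to be scaled per array and centred on each probe (r with the own array's centred log2 signal at least 0.99994, column medians -0.351 to 0.781), used as an alternative. Here the log2 intensity minus each array's 75th percentile was used. Of 62976 spots 0 were saturated; 36.7% to 53.2% of probes were well above background. The 75th percentile was 69.3 to 253 signal units. Probes were named through their RefSeq accession; a gene with several was represented by the brightest without a missing value. A gene was tested where both arrays of 1 or more groups in the fit read it well above background. limma 3.58.1 in R 4.3.3 was used with Benjamini-Hochberg adjustment over all genes. Line means were the units for EpiSC lines against mESC lines and for the Wnt inhibitor. For EpiSC lines against embryos, line means and single embryo arrays were the units of the same fit. Those standard errors mix spread between lines with spread between arrays. Other comparisons used 12 groups of 2 arrays. Where one side was in the background, folds are bounds, from the larger of its signal and the lowest signal well above background. Arrays lay on 6 slides. The mean signal planned for normexp (offset 50) was replaced by the median signal. The genes, lists and tests were chosen with earlier results of these data known. Named genes are the 8 genes, up to 8 called pathway genes by size in each comparison, and up to 3 most alike genes for genes spanning over 2 log2 units; other names beside small counts were chosen after their values were seen. Tests were checked on simulated data. A result on 1 pathway gene is not reported here.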

Additional observations from a re-analysis of the deposited data

How the results depend on the processing

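Of 1603 recomputed values for the 7 genes, 1553 kept their side of the threshold, 34 lost and 16 gained a call, and 0 called values reversed. The 1553 include 25 uncalled values that changed sign. Leaving out an array or a line, called genes numbered 4 to 6 for EpiSC against mESC lines, 0 to 1 for IWP2, 0 to 1 for E6.5 against E5.5, 1 to 2 for E7.5 against E6.5, 5 to 6 for EpiSC lines against E5.5, 5 against E6.5, 2 to 3 against E7.5, 5 to 6 for mESC lines against E5.5, and 0 for 2i, the Wnt inhibitor and R1 against J1. IWP2 called 0 genes under normexp, no filter, the mean of all probes, or only the arrays compared. A planned comparison within 1 slide set treated 129C1 against another line, Wt1, and so says nothing about IWP2; it called 2 genes (Lifr and Socs3) and gave Gbx2 -1.45. Likewise E7.5 ectoderm against J1, within 1 slide, holds no EpiSC array, and neither is counted in these numbers. E7.5 against E6.5 called 1 under normexp, quantile normalization, or the percentile over probes measured on all arrays (Lifr was lost). With no fold minimum, 2i called 1 (Pim3) and E6.5 against E5.5 called 1 (Pim1). The cause was not tested. Normexp on median signals and that percentile were chosen after seeing the data, and the latter moved the median of all genes in EpiSC against mESC lines to 0.26.

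Replicate numbers did not pair the arrays: deviations of same-numbered arrays correlated between -0.344 and 0.423 (median -0.00935, 66 pairs of groups). With the replicate number as a block, 2 genes were called in E7.5 against E6.5. With arrays in place of line means, 6 genes were called in EpiSC against mESC lines with and without that block. Called pathway genes ranged over the alternatives between 13 and 20 for EpiSC against mESC lines (16 in the report), 4 and 19 for 2i (9), 1 and 5 for IWP2 (2), 0 and 11 for the Wnt inhibitor (2), 0 and 4 for E6.5 against E5.5 (0), 8 and 21 for EpiSC lines against E5.5 (15), 7 and 18 against E6.5 (13), 6 and 15 against E7.5 (10) and 18 and 39 for mESC lines against E5.5 (26). Calls over all genes ranged between 1961 and 5338 for EpiSC against mESC lines (3621), 616 and 3960 for 2i (1972), 272 and 843 for IWP2 (586), 40 and 1697 for the Wnt inhibitor (205), 304 and 1352 for E6.5 against E5.5 (740), 866 and 4143 for E7.5 against E6.5 (2242), 1681 and 5742 for EpiSC lines against E5.5 (3559), 1753 and 5457 against E6.5 (3247), 1295 and 4242 against E7.5 (2597), 2218 and 8468 for mESC lines against E5.5 (4851) and 38 and 227 for R1 against J1 (76). The share of probes well above background limits what dim genes such as Lif can show.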
